A study of Mus musculus with 14 samples.

Results

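RNA of C2C12 cells one day into differentiation was compared between cells given Klf5 siRNA (siKlf5) and cells given control siRNA (siCtrl). Of the 24016 transcripts in the deposited table, the 11591 with a mean value of at least 10 FPKM over the 8 RNA libraries were compared. The study followed both kinds of cells on days 0, 1, 2 and 3, with 1 library per siRNA and day, so the day 1 comparison rests on 1 library on each side. There is therefore no replicate spread to set a difference against, and no test was made. The cells were grown with serum at sub-confluent density and were moved to medium with little horse serum, called differentiation medium, and the siRNA was a pool of Klf5 sequences carried in with a lipid reagent. Transfection, medium and cell line were shared by both groups. Whether the libraries of different days came from separate cultures is not given in the sources used here. A change in RNA per cell cannot be told apart from a change in the mix of cells in these bulk samples.

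C2C12 is a mouse myoblast line. On withdrawal of serum its cells leave the cell cycle, switch on myogenin and muscle structural genes and fuse into myotubes. Klf5 belongs to the zinc-finger proteins that bind CACCC and GC-rich DNA and control transcription. In the first day of differentiation myoblasts therefore pass from proliferation to muscle gene expression, while glucose use, amino acid supply and metal handling are set by regulators that act on their own gene groups: hypoxia-inducible factors on glycolysis and pH control, Atf4 on amino acid synthesis and uptake, and Mtf1 on the zinc-binding metallothioneins.

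Values are FPKM on the scale of the deposited table, in which the total of each library was set to 10000000, so that they exceed FPKM in the usual sense. Each ratio is the log2 of siKlf5 over siCtrl after 0.1 was added to both values, so it is too small for transcripts with low values. At most 3 reads per position were counted, which can also make ratios too small for transcripts with many reads. The size of that effect was not tested. The number of reads behind each value was recovered from the transcript length. The siCtrl and siKlf5 libraries of day 1 held 7850463 and 8119448 reads on transcripts, the least of the 8, whereas the others held between 10864065 and 20301478. Reads came in blocks: 541 transcripts had exactly 6 reads in the siCtrl library of day 1 and 54 had exactly 5, so the 95% exact intervals given for ratios were computed on reads divided by 6. They cover counting error only. Rn45s, the ribosomal RNA precursor, was 22636 FPKM in the siCtrl library of day 1, the highest of the 8, and 18620 FPKM in the siKlf5 library of day 1, against 7680 to 19107 FPKM on the other days, and its part in the results was not tested.

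The sequences before the starts of 5 genes from the groups below are shown first, because each group is named for a class of regulator. The windows are the 250 bases upstream of the start in the deposited table, read from mm9 on the strand of the gene, 5′ to 3′. Capitals mark the letters searched on both strands: TGCGCNC (metal response) in Mt2, TGATGNAA (amino acid response) in Chac1 and Asns, and ACGTG or GCGTG (hypoxia response core) in Car9 and Bnip3. The window of Mt2, a metallothionein, lies at chr8:96696268-96696517 on the plus strand, that of Chac1, a glutathione-degrading enzyme, at chr2:119176728-119176977 on the plus strand, and that of Asns, asparagine synthetase, at chr6:7643183-7643432 on the minus strand. The window of Car9, a carbonic anhydrase of the cell surface, lies at chr4:43519648-43519897 on the plus strand, and that of Bnip3, a mitophagy receptor, at chr7:146101190-146101439 on the minus strand.
Mt2: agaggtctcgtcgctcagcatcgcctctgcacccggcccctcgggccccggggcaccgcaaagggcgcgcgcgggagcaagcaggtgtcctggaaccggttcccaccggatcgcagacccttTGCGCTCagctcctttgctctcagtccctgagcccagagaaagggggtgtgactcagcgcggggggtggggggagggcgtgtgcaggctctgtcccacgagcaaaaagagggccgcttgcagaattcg
Chac1: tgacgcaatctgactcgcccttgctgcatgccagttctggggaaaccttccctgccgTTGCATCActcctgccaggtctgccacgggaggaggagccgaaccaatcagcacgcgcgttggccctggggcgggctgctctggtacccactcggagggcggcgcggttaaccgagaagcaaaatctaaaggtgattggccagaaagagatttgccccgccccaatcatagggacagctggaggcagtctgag
Asns: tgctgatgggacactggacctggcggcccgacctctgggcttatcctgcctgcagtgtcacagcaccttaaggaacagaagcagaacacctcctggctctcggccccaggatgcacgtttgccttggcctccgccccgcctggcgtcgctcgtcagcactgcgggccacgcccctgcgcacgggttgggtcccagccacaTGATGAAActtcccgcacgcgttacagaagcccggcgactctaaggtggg
Car9: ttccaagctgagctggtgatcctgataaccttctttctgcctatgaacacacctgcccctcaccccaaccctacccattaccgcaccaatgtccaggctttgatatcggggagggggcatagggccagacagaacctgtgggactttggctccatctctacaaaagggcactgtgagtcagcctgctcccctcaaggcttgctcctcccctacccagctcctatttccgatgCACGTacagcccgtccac
Bnip3: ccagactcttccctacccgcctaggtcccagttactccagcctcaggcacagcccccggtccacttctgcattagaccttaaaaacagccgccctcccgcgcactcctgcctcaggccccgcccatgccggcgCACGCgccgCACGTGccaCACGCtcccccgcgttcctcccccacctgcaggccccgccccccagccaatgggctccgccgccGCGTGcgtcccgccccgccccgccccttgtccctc
Over the 11589 compared transcripts with a complete window, the metal response letters were present in 22.9%, the hypoxia response letters in 57.6% and the amino acid response letters in 1.75%. The amino acid response letters were present in 9 of the 56 members of the amino acid and ER stress list, that is 16.1%. The hypoxia response letters were present in 30 of 39 hypoxia-responsive genes (76.9%) and in 21 of 27 glycolysis genes (77.8%). The share was 77.5% in the ubiquitin ligase, autophagy and lysosome list, 76.5% in the glycogen and pentose phosphate list and 74.3% in the Notch and Wnt list. A match describes the letters of the window and is not evidence of binding. In the Bnip3 window the hypoxia letters matched at 5 places, counting both strands, of which a pair overlap.

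Klf5 itself was lower in the siKlf5 library on every day, as the labels state. On day 1 its value was 381 FPKM in siCtrl (840 reads) and 160 FPKM in siKlf5 (366 reads), that is 41.9% of control, a log2 ratio of -1.25 (95% interval -1.71 to -0.81). The ratio was smaller in size on day 1 than on the other days, when it was -2.67 (day 0), -1.68 (day 2) and -2.14 (day 3), and those differences were not tested. In siKlf5 cells Klf5 was 35.1 FPKM on day 0 and 160 FPKM on day 1, whereas siCtrl cells went from 224 to 381 FPKM. Among the 14 measured members of the Klf and Sp family, 2 were lower by more than 1.5-fold (14.3%) and none was higher. Over all compared transcripts 7.12% were lower and 12.1% were higher. Of the 2 members, 1 was Klf5, the siRNA target. The other member was Klf7, at 90.4 and 59.8 FPKM (log2 ratio -0.59, interval -1.56 to 0.33). Klf4 (560 and 491 FPKM), Klf6 (535 and 478 FPKM) and Klf3 (313 and 285 FPKM) differed by less than 1.5-fold.

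The labelled cell type was checked against muscle markers. In the day 1 libraries Des, the muscle intermediate filament, was 2451 FPKM in siCtrl and 2009 FPKM in siKlf5, Cdh15, the myoblast cadherin, was 1360 and 1237 FPKM, and Ckm, muscle creatine kinase, was 693 and 640 FPKM. Ckm had been 21.0 and 19.9 FPKM on day 0, so both cultures carried a differentiating profile on day 1. Acta1, skeletal actin, was 3588 and 3828 FPKM, and Actc1, cardiac actin, was 2273 and 1924 FPKM. None of these 5 genes differed by more than 1.5-fold on day 1.

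On day 1, 1400 of the 11591 transcripts were more than 1.5-fold higher in siKlf5 cells (12.1%) and 825 were more than 1.5-fold lower (7.12%), so that 62.9% of the 2225 past the cutoff were higher. The median log2 ratio was 0.05, with quartiles at -0.19 and 0.32. On day 0 the shares were 4.75% higher and 6.52% lower, on day 2 they were 3.42% and 7.5%, and on day 3 they were 6.19% and 7.64%. Of the 4 days, day 1 was the one with more transcripts higher than lower. The spread was also wider: the interquartile range of the log2 ratio was 0.51 on day 1, against 0.36, 0.39 and 0.39 on days 0, 2 and 3. The day 1 libraries were the shallowest, and the part of depth in this spread was not tested. The spread depended on level, and the part of the limit on reads per position in that was not tested. In the lowest quintile of transcripts by level (10.0 to 37.0 FPKM) 27.6% were higher and 17.6% lower, and in the highest quintile (276 FPKM and above) 1.94% were higher and 1.68% lower. In the highest quintile the interquartile range was 0.29 on day 1 and 0.21, 0.26 and 0.23 on days 0, 2 and 3. Of the transcripts past 1.5-fold, 553 higher and 304 lower had a counting interval that left out 0. The cutoff fell in a dense region: 708 transcripts differed by 1.4- to 1.5-fold and 492 by 1.5- to 1.6-fold, in either direction.

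**Figure D1:**
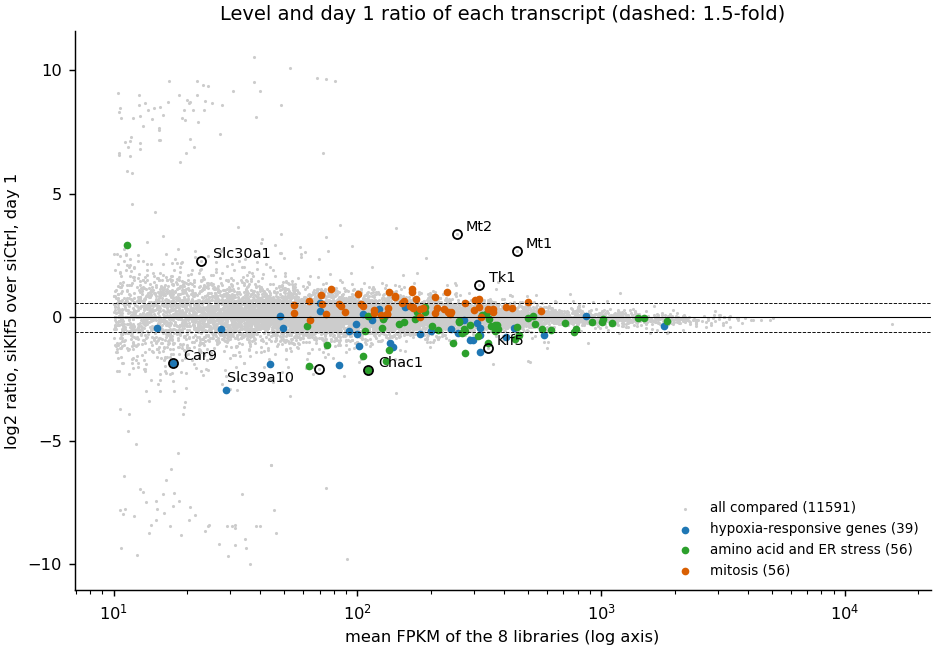
Each point is 1 of 11591 transcripts, with its mean FPKM over the 8 libraries on a log axis and its day 1 log2 ratio of siKlf5 over siCtrl, 1 library a side. Dashed lines mark 1.5-fold. Mt1 and Mt2 lie high above 0 at a high level, Klf5, Chac1, Slc39a10 and Car9 below it, and the transcripts beyond a log2 ratio of about 6 are at or near 0 in 1 library.

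Genes of the response to low oxygen were lower in siKlf5 cells. Of 39 measured hypoxia-responsive genes, 16 were more than 1.5-fold lower (41.0%, against 7.12% of all compared transcripts) and none was higher. Their median log2 ratio was -0.45 (quartiles -0.85 and -0.11). On days 0, 2 and 3 the median was -0.20, -0.04 and -0.30, with 5, 5 and 12 members lower. Over all compared transcripts 6.52%, 7.5% and 7.64% were lower on those days. The difference of the list between days was not tested. Tmem45a, a transmembrane protein, was 69.9 FPKM in siCtrl (241 reads) and 8.92 FPKM in siKlf5 (32 reads), a log2 ratio of -2.96. Car9, which helps acid leave the cell, was 46.1 and 12.7 FPKM (-1.85). Bnip3, which marks mitochondria for removal, was 499 and 190 FPKM (-1.39, interval -1.80 to -0.99). Pdk1, a kinase that inhibits pyruvate dehydrogenase, was 230 and 99.6 FPKM (-1.21, interval -1.54 to -0.88). In the siCtrl library of day 1, Bnip3 and Pdk1 were higher than on any other day. Both were lower in the siKlf5 library of day 1 than on any other day. Over the 39 genes, siCtrl on day 1 held the highest of the 8 values in 11 and the lowest in 5. The siKlf5 library of day 1 held the lowest in 12 and the highest in 1. Over all compared transcripts these shares were 9.98% and 19.8% for siCtrl, and 9.98% and 7.09% for siKlf5. Stc2, a secreted glycoprotein, was 157 and 41.1 FPKM (-1.93), and Ak4, a mitochondrial adenylate kinase, was 68.5 and 18.3 FPKM (-1.90). Hif1a, the regulated subunit of the hypoxia-inducible factor, chosen after its values were seen, was 376 FPKM in siCtrl and 334 FPKM in siKlf5 (-0.17).

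The glycolysis genes were also lower, which was already known from earlier results of these data when their list was written. Of 27 measured members, 8 were lower by more than 1.5-fold (29.6%) and none was higher, with a median of -0.43 (quartiles -0.66 and -0.22). Over all compared transcripts 7.12% were lower and 12.1% higher. Slc16a3, the lactate exporter, was 199 FPKM in siCtrl (606 reads) and 57.4 FPKM in siKlf5 (182 reads), a log2 ratio of -1.79 (interval -2.43 to -1.19). Slc2a1, the basal glucose transporter, was 985 and 486 FPKM (-1.02, interval -1.23 to -0.81), and Hk2, the muscle hexokinase, was 223 and 113 FPKM (-0.98, interval -1.29 to -0.68). Pfkl, a subunit of phosphofructokinase, was 767 and 442 FPKM (-0.80), whereas the enzyme Aldoc was 55.8 and 9.31 FPKM (-2.57). In 16 of the 27 genes the siCtrl library of day 1 held the highest value of all 8 libraries, as it did in 9.98% of all compared transcripts. The glycogen and pentose phosphate list, which shares the substrate glucose 6-phosphate, had none of its 17 members past 1.5-fold (median -0.08), and of the 65 genes of oxidative phosphorylation none was higher and 2 were lower, Cox7a1 and Cox6a2, the muscle forms of cytochrome oxidase subunits (median 0.00).

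**Figure D2:**
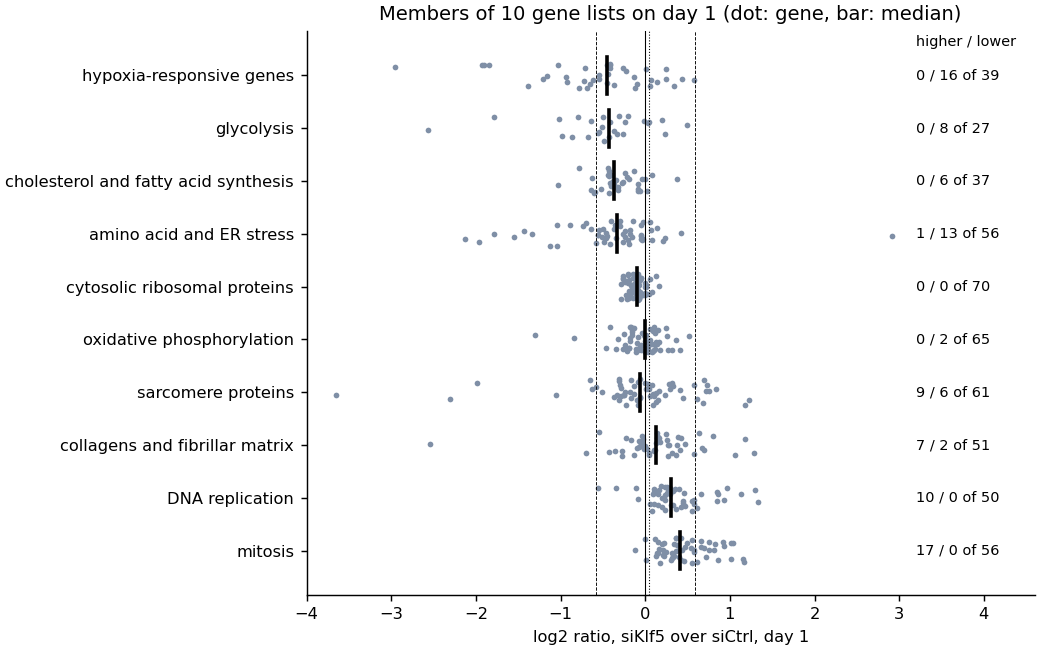
Each dot is 1 measured member of 10 gene lists, placed at its day 1 log2 ratio of siKlf5 over siCtrl. The bar is the median of the list, dashed lines mark 1.5-fold, the dotted line marks the median of all compared transcripts (0.05), and the numbers give members past 1.5-fold. Hypoxia, glycolysis, cholesterol and amino acid genes lie mostly left of 0, and mitosis and DNA replication genes mostly right of it.

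Genes of amino acid supply were lower on day 1. Of 56 measured genes of the amino acid and ER stress list, 13 were lower by more than 1.5-fold (23.2%) and 1 was higher. Over all compared transcripts 7.12% were lower and 12.1% higher. In the list 48 genes lay below 0 (median -0.34, quartiles -0.56 and -0.05). Chac1 was 98.7 FPKM in siCtrl (198 reads) and 22.5 FPKM in siKlf5 (47 reads), a log2 ratio of -2.13 (interval -3.47 to -0.98). Asns, which makes asparagine, was 178 and 65.8 FPKM (-1.43, interval -2.12 to -0.79), Trib3, an Akt-binding pseudokinase, was 37.4 and 9.53 FPKM (-1.96), and Fgf21, a secreted hormone, was 214 and 62.1 FPKM (-1.79). Aldh1l2 and Psph, of the mitochondrial folate and serine pathways, had ratios of -1.55 and -1.34. All 11 aminoacyl-tRNA synthetases of the list, the enzymes that charge tRNAs with amino acids, lay below 0, with a median of -0.48 and a range from -0.64 to -0.15. The 14 ER chaperones and folding enzymes of the list had a median of -0.03, and none passed 1.5-fold. The single member above 1.5-fold, the cysteine-making enzyme Cth, rested on 3 and 25 reads. The regulator Atf4, chosen after its values were seen, was 1124 FPKM in siCtrl and 952 FPKM in siKlf5 (-0.24).

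The same genes had the opposite ratio on day 2. The median of the list was 0.43 on that day, with 15 members higher and none lower. Over all compared transcripts 3.42% were higher and 7.5% lower on day 2. In the list, 10 genes were past 1.5-fold lower on day 1 and past 1.5-fold higher on day 2. Chac1 went from 22.5 to 129 FPKM in siKlf5 cells between days 1 and 2 and from 98.7 to 30.5 FPKM in siCtrl cells, and Asns went from 65.8 to 257 FPKM in siKlf5 cells and from 178 to 80.6 FPKM in siCtrl cells. The aminoacyl-tRNA synthetases had a median of 0.47 on day 2. On day 0 the list's median was -0.07. The difference between days was not tested. Other lists were also above 0 on day 2: cytosolic ribosomal proteins had a median of 0.39 and oxidative phosphorylation 0.22. Over all compared transcripts the day 2 median was -0.03. The siCtrl and siKlf5 libraries of day 2 held 20301478 and 11808673 reads, and the part of depth in the day 2 ratios was not tested.

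Genes of sterol and fatty acid synthesis were lower as well. Of 37 measured members, 6 were lower by more than 1.5-fold (16.2%) and none was higher, and 34 lay below 0 (median -0.37). Over all compared transcripts 7.12% were lower and 12.1% higher. Scd1, which desaturates fatty acids, was 1732 FPKM in siCtrl (10723 reads) and 1115 FPKM in siKlf5 (7178 reads), a log2 ratio of -0.64 (interval -0.74 to -0.53), and Mvd, of the mevalonate pathway, was 196 and 114 FPKM (-0.78). In siKlf5 cells Scd1 was 979 FPKM on day 0 and 1115 FPKM on day 1, and in siCtrl cells it was 1020 and 1732 FPKM. On day 3 the median of the list was 0.46. Lpin1, a phosphatidate phosphatase, had the lowest ratio of the 6 (36.0 and 17.6 FPKM, -1.03). The 70 cytosolic ribosomal protein genes had a median of -0.09, and none passed 1.5-fold. In 46 of them the siCtrl library of day 1 held the highest value of the 8, as it did in 9.98% of all compared transcripts. Their summed level was 132843 FPKM in that library, the shallowest, and 78802 FPKM in siCtrl on day 2, the deepest. The part of depth, and of the limit on reads per position, was not tested.

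**Figure D3:**
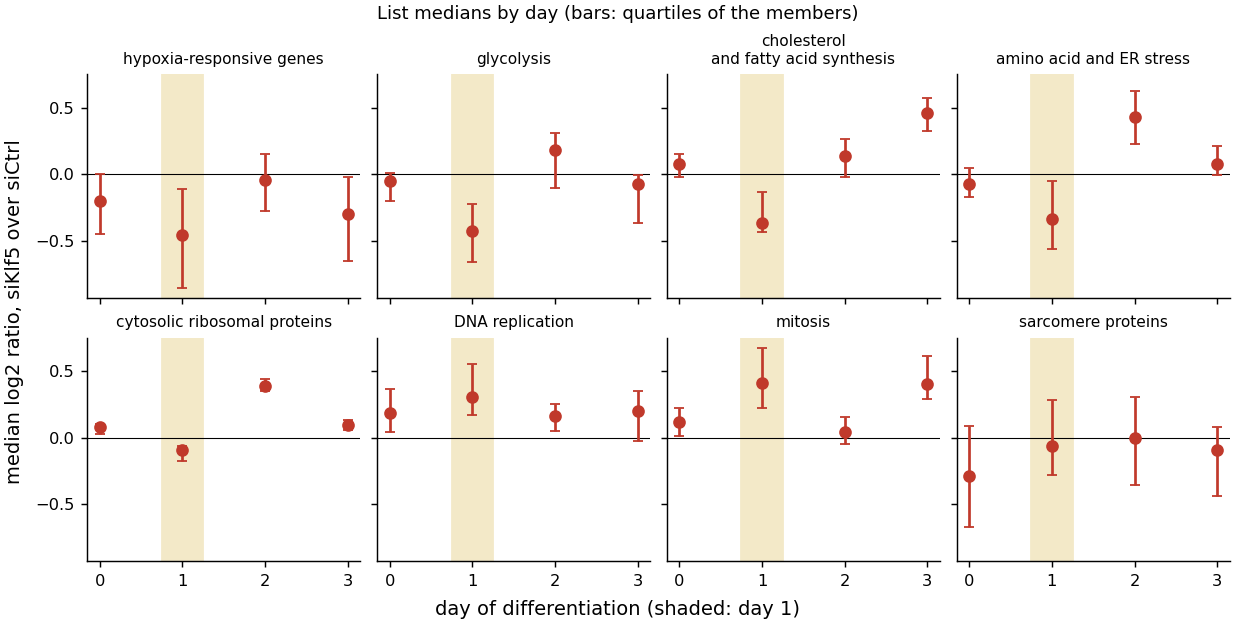
The median log2 ratio of siKlf5 over siCtrl is drawn for 8 lists on each day, with 1 library per siRNA and day. Bars run from the lower to the upper quartile of the members. The amino acid list is at -0.34 on day 1 and 0.43 on day 2, and the cholesterol list at -0.37 on day 1 and 0.46 on day 3.

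The metallothioneins Mt2 and Mt1, which bind zinc, were among the 15 largest increases of day 1. Mt2, a zinc-storing metallothionein, was 26.9 FPKM in siCtrl (19 reads) and 283 FPKM in siKlf5 (208 reads), a log2 ratio of 3.39 (interval 1.76 to 5.66). Mt1, its paralogue, was 78.4 FPKM (54 reads) and 507 FPKM (363 reads), a ratio of 2.69 (interval 1.67 to 3.89). In the other 6 libraries Mt2 lay between 242 and 391 FPKM and Mt1 between 344 and 737 FPKM, so the siCtrl library of day 1 held a value far below all others and the siKlf5 library did not stand apart. The zinc transporters were read after these values were seen, and none is among the 15 largest changes in either direction. Slc30a1, which exports zinc at the cell surface and is a known target of Mtf1, was 7.01 and 34.9 FPKM (2.30), whereas the importer Slc39a10 was 177 and 41.8 FPKM (-2.08). Slc39a10 lay between 36.7 and 83.0 FPKM in the other 6 libraries, so again siCtrl on day 1 stood apart, this time high. Of the other 5 measured Slc30a and 8 measured Slc39a genes, only Slc30a7 passed 1.5-fold (41.0 and 22.5 FPKM). Mtf1, the zinc-sensing factor, was 56.6 and 54.4 FPKM. For Mt1, Mt2 and Slc30a1 the siCtrl values rest on 54, 19 and 47 reads, whereas that of Slc39a10 rests on 1123 reads.

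The same inspection was made over all transcripts. Of the 1400 higher on day 1, the siCtrl library of day 1 held the lowest value of the 8 in 760 (54.3%), and the siKlf5 library held the highest in 267 (19.1%). Over all compared transcripts the shares were 19.8% and 7.09%. Of the 825 lower, the siKlf5 library of day 1 held the lowest value in 318 (38.5%), and the siCtrl library held the highest in 246 (29.8%), against 9.98% and 9.98% over all. Measured from the mean of days 0 and 2 in the same siRNA, the higher set had a median of -0.73 in siCtrl and 0.16 in siKlf5, and the lower set had 0.32 and -0.43, against -0.12 and -0.04 over all. The comparison uses the 2 libraries that chose the sets and is a description.

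**Figure D4:**
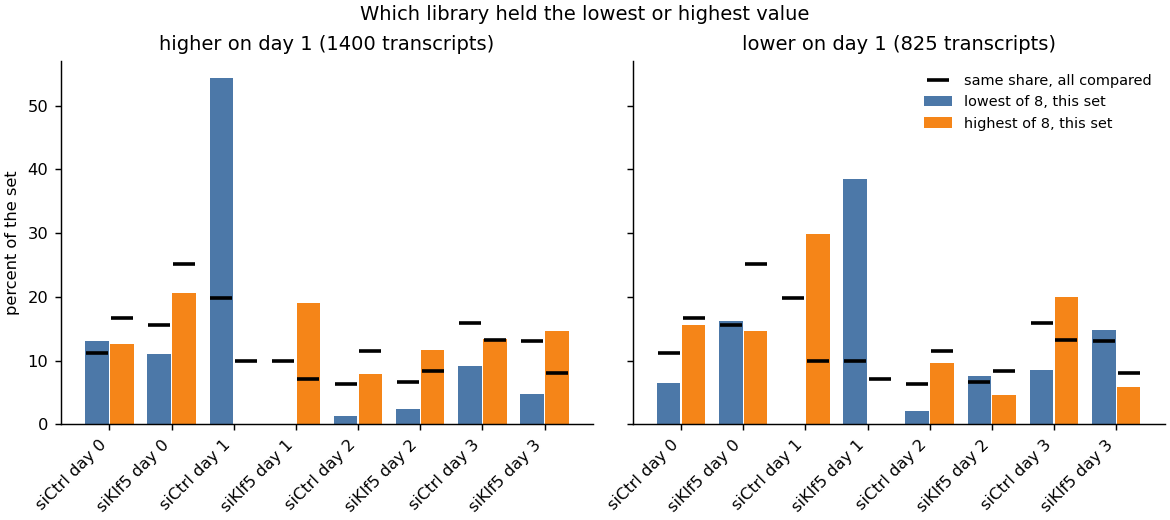
Bars give, for the transcripts higher (left) and lower (right) on day 1, the percent in which each of the 8 libraries held the lowest or the highest value, and black marks give the same share over all compared transcripts. The siCtrl library of day 1 held the lowest value in 54.3% of the transcripts that were higher in siKlf5 cells.

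Cell cycle genes were higher in siKlf5 cells. Of 56 measured mitosis genes, 17 were more than 1.5-fold higher (30.4%, against 12.1% of all compared transcripts) and none was lower (median 0.41). Of 50 DNA replication genes 10 were higher (20.0%) and none was lower (median 0.30). Tk1, the thymidine kinase that salvages thymidine in S phase, was 126 FPKM in siCtrl (215 reads) and 310 FPKM in siKlf5 (550 reads), a log2 ratio of 1.30 (interval 0.73 to 1.90). Plk1, a mitotic kinase, was 113 and 232 FPKM (1.04, interval 0.56 to 1.54), Cdt1, a licensing factor, was 50.8 and 112 FPKM (1.14), and Nuf2, a kinetochore subunit, was 73.8 and 165 FPKM (1.16). Both groups of cells were far below their day 0 levels: Plk1 was 449 FPKM in siCtrl and 466 FPKM in siKlf5 on day 0. On day 2 the mitosis median was 0.04 with none past 1.5-fold, and on day 3 it was 0.40 with 15 higher. Over all compared transcripts 6.19% were higher on day 3. The DNA replication median was above 0 on the other days as well, at 0.19, 0.16 and 0.20 on days 0, 2 and 3. In siCtrl cells Plk1 was 113 FPKM on day 1 and 185 FPKM on day 2, whereas in siKlf5 cells it was 232 and 212 FPKM.

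Of 37 genes of the Cdk inhibitor and p53 list, 5 were lower (13.5%, against 7.12% of all compared transcripts) and 1 was higher (2.70%, against 12.1%), with a median of -0.11. Cdkn1a, the inhibitor p21 that holds cells out of the cycle, was 2468 FPKM in siCtrl (6028 reads) and 1631 FPKM in siKlf5 (4145 reads), a ratio of -0.60 (interval -0.74 to -0.46). Ccnd1 and Ccnd2, D cyclins, were also lower, at 584 and 385 FPKM (-0.60) and 183 and 107 FPKM (-0.77), and Cdkn2c, an inhibitor of Cdk4, was higher, at 115 and 180 FPKM (0.64). The clustered histone genes, of which 54 were measured, were split, with 15 higher and 18 lower, and most have few reads. Hist1h2bq and Hist1h2br carried the same counts (16 and 103 reads) and cannot be told apart. Over all 54 the median was 0.07, and over the histone genes with a mean of at least 50 FPKM it was -0.52.

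Muscle genes are set beside the shares of all compared transcripts, 12.1% higher and 7.12% lower. Those shares fell with level, and no comparison at like level was made. The shares of sarcomere proteins were close to them in both directions, and the differences were not tested. Of 61 measured sarcomere proteins, 9 were higher (14.8%) and 6 were lower (9.84%), with a median of -0.06, and of 45 genes for excitation, fusion and the neuromuscular junction 3 were higher (6.67%) and 4 were lower (8.89%), with a median of 0.01. Myl4, an embryonic myosin light chain, was 616 FPKM in siCtrl (689 reads) and 298 FPKM in siKlf5 (346 reads), a ratio of -1.05 (interval -1.53 to -0.58). Mybph, a myosin-binding protein, was 1774 and 1132 FPKM (-0.65), Myh7, the slow myosin heavy chain, was 20.6 and 5.11 FPKM (-1.99), and Cav3, muscle caveolin, was 56.8 and 17.6 FPKM (-1.69). On the other side Myh4, the fast IIB myosin heavy chain, was 22.6 FPKM in siCtrl (174 reads) and 53.03 FPKM in siKlf5 (424 reads), a ratio of 1.22 (interval 0.59 to 1.90). Unc45b, a myosin chaperone, was 137 and 231 FPKM (0.75), Myom1, of the M-band, was 68.7 and 114 FPKM (0.73), and Mybpc1, slow myosin-binding protein C, was 9.82 and 22.4 FPKM (1.18). Myh3, the embryonic myosin heavy chain, was 1564 and 1736 FPKM (0.15, interval 0.06 to 0.24). Myom2 was 465 and 376 FPKM (-0.31).

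Among the regulators of the muscle program, 26 were measured, 1 was higher (3.85%) and 2 were lower (7.69%), with a median of 0.07. Myog was 1896 and 1517 FPKM (-0.32, interval -0.50 to -0.15), and Myod1 was 494 and 454 FPKM (-0.12, interval -0.42 to 0.18). Tead4, a DNA-binding partner of Yap, was 183 FPKM in siCtrl and 106 FPKM in siKlf5 (-0.80, interval -1.25 to -0.35), and Hey1, a Notch target, was 133 and 78.8 FPKM (-0.75). Id3, which blocks the MyoD family, was 76.5 and 146 FPKM (0.93, interval 0.00 to 1.91). Mef2c was 55.2 and 53.2 FPKM on day 1 and was 163 and 116 FPKM on day 2.

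**Figure D5:**
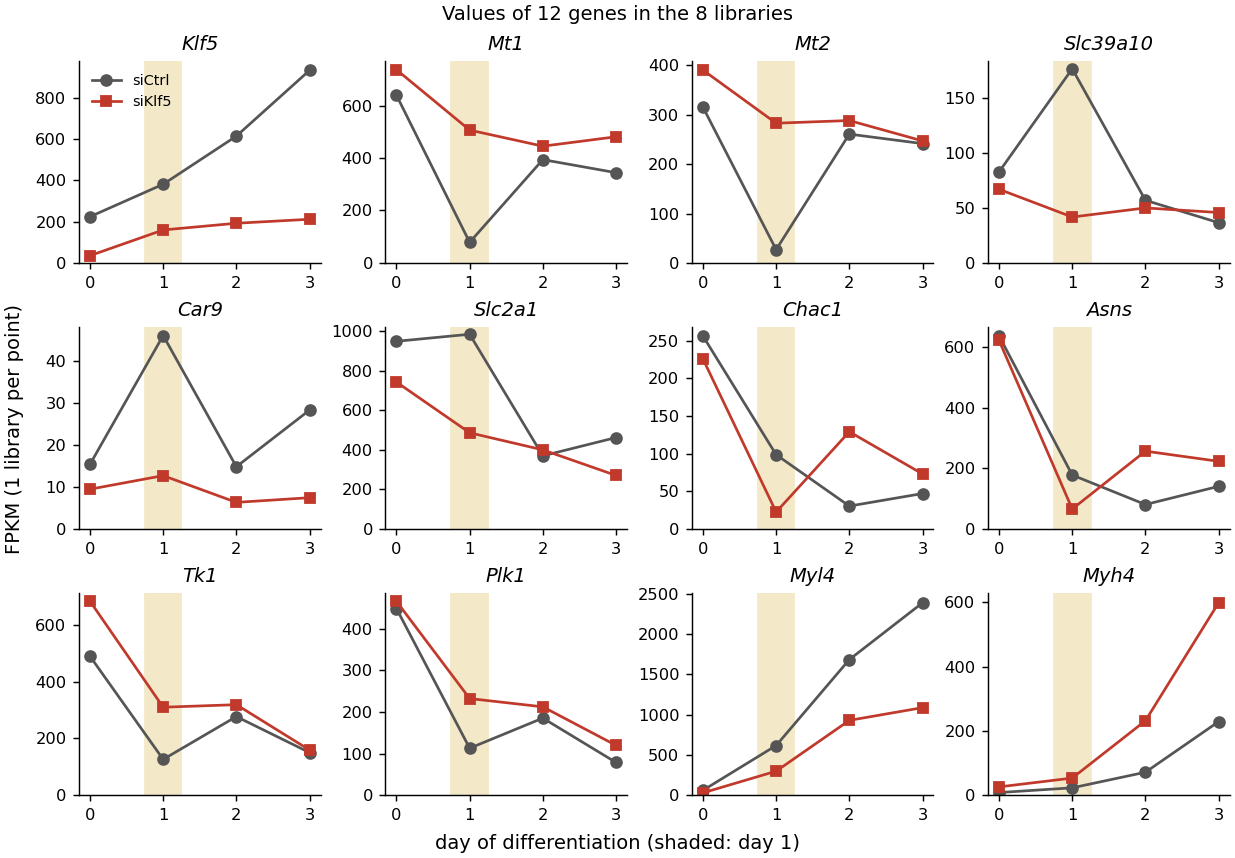
FPKM of 12 genes on days 0 to 3 in siCtrl (circles) and siKlf5 (squares), 1 library per point, with day 1 shaded. Mt1 and Mt2 dip and Slc39a10 peaks in siCtrl on day 1, Chac1 and Asns cross between days 1 and 2, and Myl4 and Myh4 lie apart in opposite directions on every day.

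The transcripts that change over differentiation were examined as sets chosen without the day 1 libraries. Of the 1087 transcripts that were at least 2-fold higher on day 2 than on day 0, 296 were higher in siKlf5 on day 1 (27.2%) and 152 were lower (14.0%), with a median of 0.16. Of the 653 transcripts that were at least 2-fold lower, 145 were higher (22.2%) and 122 were lower (18.7%), with a median of 0.07. Of the 9851 that did neither, 9.74% were higher and 5.59% were lower (median 0.04). As a median over the rising transcripts, 57.5% of the log2 change from day 0 to day 2 had been reached on day 1 in siCtrl and 73.4% in siKlf5, and over the falling transcripts 91.9% and 83.1%.

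Matrix, secreted and signalling genes are given beside the shares of all compared transcripts, 12.1% higher and 7.12% lower. Of 51 measured collagen and matrix genes, 7 were higher (13.7%) and 2 were lower (3.92%), with a median of 0.13. Nid2, a basement membrane linker, was 118 and 247 FPKM (1.06, interval 0.75 to 1.38), and Bgn, a matrix proteoglycan, was 669 and 1064 FPKM (0.67, interval 0.47 to 0.87). Of 43 cytokines and growth factors, 11 were higher (25.6%) and 8 were lower (18.6%), with a median of 0.09. Cxcl12, a chemokine, was 17.9 and 91.3 FPKM (2.34, interval 1.18 to 3.74), and Il33, a nuclear alarmin, was 124 and 39.5 FPKM (-1.65, interval -2.41 to -0.94). Of 35 genes of TGF-beta, BMP and activin signalling 3 were higher and 3 were lower (8.57% each, median 0.10), among them Inhbb, an activin subunit, at 80.7 and 165 FPKM (1.03, interval 0.62 to 1.45). Of 35 Notch and Wnt genes 5 were higher (14.3%) and 4 were lower (11.4%), with a median of 0.16 and with Dkk2, a Wnt antagonist, at 139 and 42.8 FPKM (-1.70). Of 39 immediate early genes 5 were higher (12.8%) and 3 were lower (7.69%), with a median of 0.04 and with Egr1 at 236 and 517 FPKM (1.13) and the growth factor Hbegf at 107 and 44.7 FPKM (-1.26).

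The remaining lists were counted in the same way, beside 12.1% higher and 7.12% lower over all compared transcripts. Of 27 interferon response genes, 3 were higher (11.1%) and none lower (median 0.07). Among 38 chaperones 3 were higher (7.89%) and none lower (median -0.12), and among 34 proteasome genes none passed in either direction (median -0.10). Among 40 genes for ubiquitin ligases, autophagy and the lysosome none was higher and 2 were lower (5%, median 0.02). Among 50 splicing factors 1 was higher (2%) and none lower (median 0.17). Among 25 long noncoding RNAs 5 were higher (20.0%) and 1 was lower (4%, median 0.07). Neat1, which builds paraspeckles, was 836 and 1646 FPKM (0.98, interval 0.83 to 1.13), and Foxo1, a factor for atrophy genes, was 26.4 and 11.4 FPKM (-1.21). Of the 12 adipocyte markers, 4 were measured and all 4 were past 1.5-fold, 3 higher and 1 lower (median 0.90). Lpl, lipoprotein lipase, was 76.3 and 189 FPKM (1.31), Cebpa was 10.7 and 24.5 FPKM (1.19) and Plin4 was 7.74 and 11.9 FPKM (0.61), whereas Pparg was 62.9 and 33.7 FPKM (-0.90). The summed level of all 12 was 162 FPKM in siCtrl and 261 FPKM in siKlf5 on day 1. Of the 14 osteoblast and chondrocyte markers 3 were measured, 1 of them past 1.5-fold (summed level 364 and 355 FPKM). Most of that sum was Sox9, which was 286 FPKM in siCtrl and 236 FPKM in siKlf5. Of the 14 endothelial and blood markers looked up, 2 were measured, neither past 1.5-fold (summed level 215 and 183 FPKM), and Hba-a1, an alpha globin, made up 198 and 168 FPKM of it. Fabp4 and Plin1 of adipocytes, Alpl and Ibsp of osteoblasts and Pecam1 of endothelium were at 0 in both day 1 libraries. The part of other cell types in the differences was not tested.

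By size alone, among the 10511 transcripts of at least 300 bases with at least 60 reads in the higher library, the 15 lowest ratios were those of Traf1 (-3.93), Cd24a (-3.44), Clca4 (-3.38), Rhov, Rab44, Dpep1, Tmem45a, Aldoc, Ereg, Spint1, Cyp1a1, Apln, Loxl4, Chac1 and Crnde (-2.11). Traf1, an adaptor of the TNF receptors, was 31.0 FPKM in siCtrl (92 reads) and 1.95 FPKM in siKlf5 (6 reads), and Ereg, an Egf-like ligand, was 30.8 and 6.17 FPKM. Most of these were low: the siCtrl value of the 15 lay between 16.6 and 98.7 FPKM. The 15 highest ratios were those of Mt2 (3.39), Pvalb (2.91), Snhg4, C1ra, Mt1, 1190002F15Rik, Hist1h2bq, Hist1h2br, Scn7a, Hscb, Det1, Dnajc12, Tagln, Catsper2 and Gpnmb (2.35). Pvalb, the calcium buffer of fast fibres, was 7.92 FPKM in siCtrl (9 reads) and 60.1 FPKM in siKlf5 (71 reads), and Tagln, the smooth muscle actin-binding protein, was 28.2 and 148 FPKM. Tagln was 231 and 350 FPKM on day 2 and 288 and 355 FPKM on day 3, and 79.2 and 53.1 FPKM on day 0.

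The day 1 calls were then looked up on the other days, whose libraries are separate. Of the 1400 transcripts higher on day 1, 172 were also more than 1.5-fold higher on day 0 (12.3%), 144 on day 2 (10.3%) and 217 on day 3 (15.5%), against 4.75%, 3.42% and 6.19% of all transcripts. In the opposite direction, 149, 136 and 176 were more than 1.5-fold lower (10.6%, 9.71% and 12.6%), so both directions were above the shares of all transcripts, which were 6.52%, 7.5% and 7.64% lower on those days. Of the 825 lower on day 1, 180 were lower on day 0 (21.8%), 229 on day 2 (27.8%) and 226 on day 3 (27.4%), while 98, 72 and 97 were higher (11.9%, 8.73% and 11.8%). Calls on day 1 were most frequent at low levels, where the ratios of the other days also spread most. Their interquartile range was 0.77, 0.70 and 0.83 in the lowest quintile on days 0, 2 and 3, against 0.21, 0.26 and 0.23 in the highest. No comparison at like level was made. In all, 23 transcripts were higher on every day (1.64% of the 1400) and 44 were lower (5.33% of the 825). Those lower include Klf5, Myl4, Myh7, Car9, Tmem45a and Il33, and those higher include Myh4 and Mybpc1. Genes of the amino acid list and Scd1 are not among them.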

How the data were processed

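RNA libraries from 8 of the 14 samples of the series were used, 1 per siRNA and day, and the ChIP-seq samples were not analysed here. Poly(A) RNA was sequenced from both ends of each fragment, and the authors used STAR (genome mm9) for alignment and HOMER for the deposited FPKM values, counting exons on both strands with at most 3 reads per position, 1 transcript per gene and a matrix total of 10000000. Because strand was not used, overlapping antisense genes can share reads. Normalization with DESeq2 is described by the authors, and those counts were not used here. A further 8 columns of log2 values were not used.

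Reads were recovered from the FPKM values and transcript lengths. All 2621 and 2658 low values checked in the day 1 libraries lay within 0.1 of a whole number. Since each group is 1 library, ratios have no test. Transcripts past 1.5-fold were counted, and exact binomial (Clopper-Pearson) intervals were computed on reads divided by 6. The 29 gene lists were written from general knowledge. The comparison and the lists were chosen with earlier results of these data known. Rising and falling transcripts were chosen at 2-fold between days 0 and 2 in the mean of both siRNAs. The genes named were Klf5, the Klf family, myogenic transcription factors, Myh3, Mybph, Myl4, Myom2, the 15 largest changes each way (length of at least 300 bases, at least 60 reads in the higher library) and up to 6 members of each list each way, with others stated as chosen after their values were seen. Sequences were read from the mm9 genome at the coordinates of the deposited table. Alternatives were other pseudocounts, scalings, filters, cutoffs and ways to choose the rising and falling sets. The calculations were tested on simulated data and were done in Python 3.11.15 with scipy 1.17.1, pandas 2.3.3 and numpy 2.4.6, and plots in matplotlib 3.10.9.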

Additional observations from a re-analysis of the deposited data

Results flagged for a closer look

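Some list medians lay on opposite sides of 0 on day 1 and on another day, by at least 0.1 on the log2 scale on both, among lists of at least 10 members. The groups are 1 library each, so none of these differences was tested. For the amino acid and ER stress genes the median was -0.34 on day 1 and 0.43 on day 2. For the cholesterol and fatty acid synthesis genes the day 1 value was -0.37, against 0.14 on day 2 and 0.46 on day 3. For glycolysis it was -0.43 on day 1 and 0.18 on day 2. The cytosolic ribosomal proteins also had a day 2 median above 0, at 0.39. The part of the unequal depth of the day 2 libraries was not tested. For collagens and fibrillar matrix the median was 0.13 on day 1 and -0.16 on day 0. For TGF-beta, BMP and activin signalling the day 1 value was 0.10, against -0.19 on day 0 and -0.18 on day 2. No outlier check was possible, since no group has more than 1 library.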

How the results depend on the processing

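No library could be left out, since each siRNA and day has 1. No paired analysis was possible because the day 1 groups hold 1 library each. A block by day over the 4 days would give the siRNA effect over all days and was not fitted. The day 1 counts of 1400 higher and 825 lower were 2348 and 1569 with a mean of at least 1 FPKM, 3261 and 2531 with no filter, 613 and 347 with a mean of at least 50, 531 and 329 at 2-fold, and 553 and 304 where a counting interval that left out 0 was also required. The share higher among transcripts past the cutoff was 62.9% as reported and lay between 56.3% (no filter) and 65.5% (at least 60 reads in the higher library, an alternative chosen after seeing the data). The median over all transcripts was 0 after centring on it, 0.022 with upper-quartile scaling, 0.035 with a mean of at least 1, 0.034 with a mean of at least 50, and 0 with no filter. Of 234 medians of the 26 lists with an interval, 232 stayed within the 95% order-statistic interval of the reported median, which treats genes as independent, and 2 did not: long noncoding RNAs at 0.028 after centring and clustered histone genes at -0.52 with a mean of at least 50. The 3 lists with too few members for an interval were read against their quartiles, a choice made after seeing the data, and 7 of 27 values left them. With no filter the adipocyte median was 0 (0.90 as reported), the osteoblast median 0 (0.46) and the endothelial and blood median -0.14 (0.03). With a mean of at least 50 the adipocyte median was 0.21, and the endothelial and blood median was -0.24 with that filter, with a mean of at least 1 and with at least 60 reads. The rising set had a median of 0.12 after centring, 0.10 with a mean of at least 1 and 0 with no filter, and the falling set had 0 with a mean of at least 1 and with no filter. At 2-fold, 47, 37 and 59 of the transcripts higher on day 1 were also higher on days 0, 2 and 3, and 59, 72 and 80 of those lower were also lower. All 712 alternative ratios of the 178 named genes stayed within their counting intervals, and no ratio past 1.5-fold changed direction. For single genes these alternatives were other pseudocounts and scalings only, which moved Klf5 from -1.25 to -1.30 at most. Such shifts are small beside its interval (-1.71 to -0.81), so the outcome says little about how firm the ratios are. Smaller ratios were not checked for a change of sign, and those near 0, such as that of Klf10 (0.0038), can change it after centring. The low depth of the day 1 libraries limits the ratios of transcripts with few reads.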
